A study of Mus musculus with 9 samples.

Results

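Immediate early genes are the first genes that a cell transcribes after a growth factor, serum or a stress reaches it, because the factors that switch them on are already present and need only be phosphorylated. The best known of them encode transcription factors of the AP-1 complex, which is a dimer of a Fos and a Jun protein, and zinc finger factors such as *Egr1*. Others encode the brakes of the same response, among them the MAP kinase phosphatase *Dusp1* and the mRNA decay factor *Zfp36*. Their mRNAs are short-lived, and in cultured epithelial cells their levels are known to move with feeding, density and handling. The 10 genes described here are *Fos*, *Fosb*, *Fosl1*, *Jun*, *Junb*, *Egr1*, *Atf3*, *Ier3*, *Dusp1* and *Zfp36*, taken by symbol from the 23366 gene entries of the deposited count tables, and each of the 10 was found. They were followed in 9 RNA-seq libraries of 2 mouse epithelial cell lines.

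The first line, mSGc, arose spontaneously from submandibular gland cells of male C57BL/6 mice 12 weeks of age. It gave 6 libraries, 1 each at passages P2, P4, P10 and P25 in Progenitor Media and 1 each at P10 and P25 in Differentiating Media. The study describes a serum-free medium with epidermal and fibroblast growth factors, insulin and dexamethasone, in which the line was established, and a serum-containing medium with retinoic acid, epidermal growth factor, triiodothyronine and hydrocortisone. The labels do not pair their names with these recipes, and P2 and P4 exist in Progenitor Media only. The second line, IMOK, is an immortalized oral keratinocyte line from C57BL/6 mice of 12 weeks, sequenced as 3 replicate libraries in IMOK media. Both lines are immortalized cultures, no mSGc condition had a second library, and the labels do not say whether the IMOK replicates came from separate cultures, so the p-values measure the spread between these libraries only.

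Between 6237884 reads (P25 in Differentiating Media) and 18444963 reads (IMOK replicate 1) were counted on genes per library. The basal epithelial markers *Krt5*, *Krt14*, *Krt17*, *Trp63*, *Sfn* and *Cdh1* together held 13080 to 26207 TPM in mSGc and 10543 to 11734 TPM in IMOK. TPM is a transcript level, the count divided by gene length and scaled to the same total in every library. Of 7 fibroblast markers the summed level was 1.02 to 25.7 TPM in mSGc and 4.05 to 24.6 TPM in IMOK, 3 endothelial markers stayed under 1 TPM in every library, and 5 leukocyte markers summed to 1.88 to 4.10 TPM in mSGc and 4.86 to 33.9 TPM in IMOK. The last sum was nearly all *Cd68*, which was lower in mSGc (log2 fold change -2.26, adjusted p = 0.0230 in edgeR's test) but not without IMOK replicate 1 (-1.15, adjusted p = 0.131), and *Pax5* had no counts anywhere. IMOK replicate 1 stood apart from replicates 2 and 3. A chi-square statistic of its counts against theirs was 150 and 180 per degree of freedom, compared with 21.3 between replicates 2 and 3. Calls between the lines are therefore also given without it. In bulk RNA, fewer cells expressing a gene and less RNA per cell cannot be told apart.

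The genes lie on 8 chromosomes of mm9, the build of the deposited tables. *Fos* spans chr12:86814851-86818219, *Fosb* chr7:19888045-19895394, *Fosl1* chr19:5447698-5455938, *Jun* chr4:94715727-94718913 and *Junb* chr8:87500808-87502647. *Atf3* spans chr1:192994176-193007212, *Ier3* chr17:35958658-35959856, *Dusp1* chr17:26642536-26645417 and *Zfp36* chr7:29161803-29164247. *Jun* and *Junb* are single-exon entries, and the exons of the 10 entries sum to between 1090 bases (*Ier3*) and 3776 bases (*Fosb*). An exon of *Fosl1* overlaps the antisense gene *Ccdc85b*, and a GENCODE annotation of the same build places an antisense gene across *Jun* and across *Egr1*. The strand setting of the counting is not given in the sources used here, so reads of these 3 genes and of their antisense neighbours could not be separated.

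The stretches of 250 bases upstream of 4 genes are shown because the results below turn on these genes: *Ier3* differed between the lines, *Dusp1* fell with passage, and *Fos* and *Jun* encode the classical pair of AP-1. They are RefSeq promoters of build GRCm38.p6, whose table matched 8 of the 10 genes, written 5′ to 3′ on the gene's strand. Capitals mark matches, on either strand, to the cAMP response element (TGACGTCA) or its core (TGACG), to the AP-1 site (TGACTCA), to the variant TGACATCA, to the CArG box of serum response factor or to the kappaB site.
*Ier3* (chr17:35821463-35821712, plus strand): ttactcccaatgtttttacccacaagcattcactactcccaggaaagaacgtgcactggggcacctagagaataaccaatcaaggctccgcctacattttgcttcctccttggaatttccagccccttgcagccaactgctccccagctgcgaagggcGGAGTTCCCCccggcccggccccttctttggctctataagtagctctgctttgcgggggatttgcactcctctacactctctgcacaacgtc
*Dusp1* (chr17:26508473-26508722, minus strand): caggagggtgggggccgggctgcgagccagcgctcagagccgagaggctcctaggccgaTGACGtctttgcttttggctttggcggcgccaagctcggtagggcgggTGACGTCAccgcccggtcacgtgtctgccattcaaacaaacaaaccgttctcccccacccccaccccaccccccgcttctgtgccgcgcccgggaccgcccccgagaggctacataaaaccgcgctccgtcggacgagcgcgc
*Fos* (chr12:85473640-85473889, plus strand): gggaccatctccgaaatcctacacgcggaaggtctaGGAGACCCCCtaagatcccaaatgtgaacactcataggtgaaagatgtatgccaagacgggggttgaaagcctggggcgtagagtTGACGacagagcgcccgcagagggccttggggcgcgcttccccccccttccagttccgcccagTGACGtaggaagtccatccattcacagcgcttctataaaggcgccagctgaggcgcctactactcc
*Jun* (chr4:95052223-95052472, minus strand): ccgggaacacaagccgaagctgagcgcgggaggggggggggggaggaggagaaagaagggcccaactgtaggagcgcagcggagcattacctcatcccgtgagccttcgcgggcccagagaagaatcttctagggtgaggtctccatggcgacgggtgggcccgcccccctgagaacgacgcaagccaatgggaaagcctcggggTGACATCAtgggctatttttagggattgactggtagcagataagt

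Among the 8 matched genes the full cAMP response element stood upstream of *Dusp1* only, 143 to 136 bases before the start, and 1.55% of all 32817 promoter stretches of this length hold it. Its core, which the full element contains, was found in *Fos*, *Fosb*, *Junb*, *Atf3* and *Dusp1* (17.7% of all stretches). The variant TGACATCA lay 45 to 38 bases before the start of *Jun* (2.93% of all stretches), the CArG box 58 to 49 bases before that of *Zfp36* (1.47%), and a kappaB match before *Ier3*, *Fos* and *Fosb* (7.25%). No match to the AP-1 site itself was present in the 8 stretches (4.46% of all). *Egr1* and *Fosl1* were not among the 8 matched genes and so were not searched. These are matches of letters in a short window, and no binding was measured.

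Both lines contained mRNA of all 10 genes in every library. Ordered by the median TPM over the 9 libraries, *Junb* (249 TPM) and *Ier3* (147 TPM) came first, above 95.8% and 92.1% of the genes tested between the lines. *Egr1* (35.2 TPM), *Zfp36* (33.0 TPM), *Jun* (27.9 TPM), *Atf3* (19.8 TPM) and *Fos* (15.6 TPM) formed a middle group. *Dusp1* (5.82 TPM), *Fosl1* (3.04 TPM) and *Fosb* (1.33 TPM) were lowest. Neighbours in the middle group exchanged places between libraries, with *Egr1* above *Zfp36* in 4 of 9 libraries and *Jun* above *Atf3* in 5 of 9. By contrast *Ier3* lay above *Egr1*, and *Fosl1* above *Fosb*, in 9 of 9. *Fosb* and *Fosl1* rested on few reads, 8 to 95 and 10 to 81 counts per library.

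**Figure D1:**
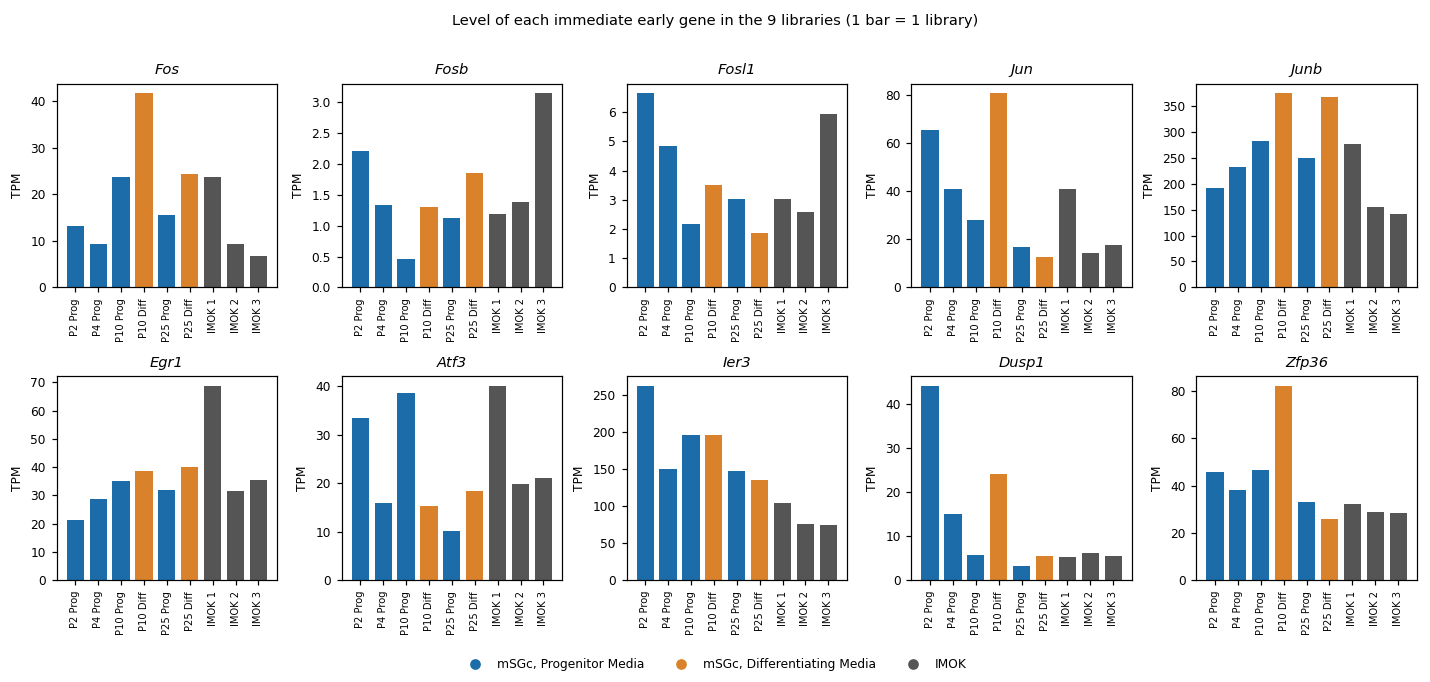
Level in TPM (vertical axes, each from 0) of the 10 immediate early genes in the 6 mSGc libraries, named by passage and medium, and the 3 IMOK replicates, with 1 bar per library and so no error bars. Only *Ier3* has every mSGc bar (135 TPM or more) above every IMOK bar (104 TPM or less), and *Dusp1* is tallest at P2 (44.0 TPM).

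*Fos* encodes the classical serum-induced partner in AP-1. In mSGc it was at 13.3 TPM at P2, 9.36 at P4, 23.8 at P10 and 15.6 at P25 in Progenitor Media, and at 41.7 at P10 and 24.3 at P25 in Differentiating Media. In IMOK it was at 23.6, 9.42 and 6.79 TPM in replicates 1, 2 and 3. The P10 library in Differentiating Media was the highest of the 9, and IMOK replicate 1 lay within the mSGc range while the other IMOK libraries lay at its lower edge or below it.

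*Fosb* and *Fosl1* encode other Fos family members, which like Fos pair with Jun proteins. *Fosb* ran from 0.461 TPM (P10, Progenitor Media) to 2.20 TPM (P2) in mSGc, and was at 1.18, 1.38 and 3.14 TPM in IMOK replicates 1, 2 and 3. *Fosl1* ran from 1.87 TPM (P25, Differentiating Media) to 6.65 TPM (P2) in mSGc, and was at 3.03, 2.58 and 5.93 TPM in IMOK. For both genes the highest mSGc library was P2 and the highest IMOK library was replicate 3, and the lines overlapped.

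*Jun* encodes the strongly activating Jun protein, and *Junb* a weaker one that is abundant in squamous epithelia. *Jun* was at 65.4 TPM at P2, 41.0 at P4, 27.9 at P10 and 16.7 at P25 in Progenitor Media, and at 80.6 at P10 and 12.5 at P25 in Differentiating Media, against 40.9, 14.4 and 17.7 TPM in IMOK. *Junb* was at 192 TPM at P2, 233 at P4, 283 at P10 and 249 at P25 in Progenitor Media, and at 374 at P10 and 367 at P25 in Differentiating Media, against 275, 154 and 142 TPM in IMOK. The Differentiating Media libraries were thus the 2 highest of the 9 for *Junb*, but the highest and the lowest of the 9 for *Jun*.

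*Egr1* (chr18:35020861-35024610) encodes a zinc finger factor induced through the ERK pathway. It spanned 1.86-fold in mSGc, from 21.4 TPM (P2) to 39.9 TPM (P25, Differentiating Media), and was at 68.7, 31.7 and 35.6 TPM in IMOK. *Atf3*, a stress-induced member of the leucine zipper family, was at 33.4 TPM at P2, 15.9 at P4, 38.5 at P10 and 10.1 at P25 in Progenitor Media, at 15.4 at P10 and 18.4 at P25 in Differentiating Media, and at 40.0, 19.8 and 21.1 TPM in IMOK. For *Egr1* IMOK replicate 1 was the highest of all 9 libraries, and for *Atf3* it shared the top of the range with P10 in Progenitor Media.

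The remaining genes act after the signal. *Ier3*, which encodes a regulator of cell survival, was at 262 TPM at P2, 150 at P4, 197 at P10 and 147 at P25 in Progenitor Media, at 197 at P10 and 135 at P25 in Differentiating Media, and at 104, 75.9 and 74.8 TPM in IMOK. *Dusp1* was at 44.0 TPM at P2, 14.9 at P4, 5.82 at P10 and 3.21 at P25 in Progenitor Media, at 24.1 at P10 and 5.41 at P25 in Differentiating Media, and at 5.38, 6.15 and 5.46 TPM in IMOK. *Zfp36* ran from 25.8 TPM (P25, Differentiating Media) to 82.1 TPM (P10, Differentiating Media) in mSGc and was at 32.4, 28.9 and 28.6 TPM in IMOK. *Dusp1* thus spanned 13.7-fold within mSGc and 1.14-fold within IMOK, the widest range of the 10 in mSGc, and *Zfp36* also spanned only 1.14-fold within IMOK.

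As a description of how variable the set was, the SD of log2(CPM + 1), where CPM is the count scaled to library size with TMM factors, was computed over the 6 mSGc libraries for every gene tested between the lines. Its median was 0.50 for the 10 genes and 0.36 for all genes tested, and 9 of the 10 lay above the latter. *Dusp1* (1.23) and *Jun* (0.96) lay above 96.1% and 92.5% of genes, and *Ier3* (0.28) above 33.1%. Over the 3 IMOK libraries the medians were 0.47 and 0.31, with *Fos* (0.76) above 87.2% of genes and *Zfp36* (0.022) above 0.776%.

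**Figure D2:**
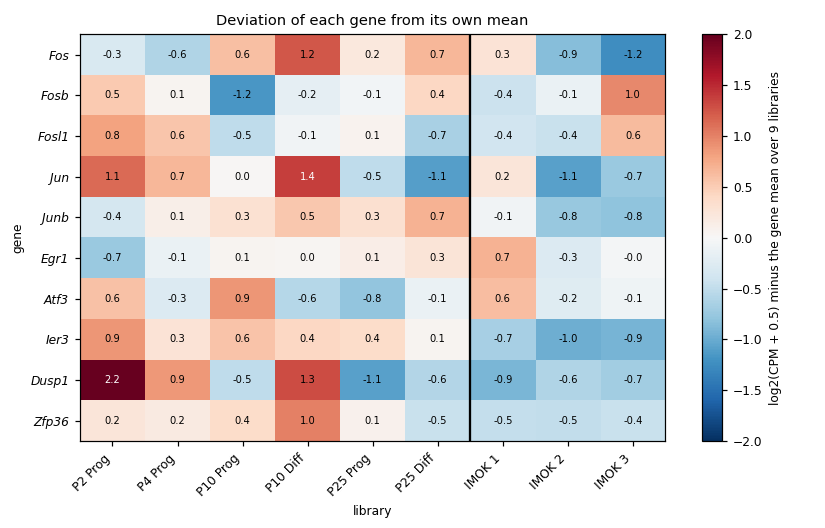
Deviation of each gene (rows) from its own mean over the 9 libraries (columns), in units of log2(CPM + 0.5), with red above and blue below the mean and the black line between mSGc and IMOK. *Ier3* is above its mean in every mSGc library and below it in every IMOK library, and the other 9 rows have no such division.

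The makeup of AP-1 at the mRNA level was described from TPM, adding *Fosl2* and *Jund*, which complete the Fos and Jun families. *Fosl2*, a more stably expressed Fos family member, was the most abundant of its family in 8 of 9 libraries, at 42.8% to 77.7% of the family's summed TPM in mSGc and 60.5% to 62.8% in IMOK. *Fos* held 13.4% (P2) to 49.6% (P25, Differentiating Media) in mSGc and 16.3% to 31.6% in IMOK, while *Fosb* held at most 7.55% and *Fosl1* at most 14.3% in any library. In the Jun family *Junb* held 43.8% (P2) to 76.6% (P25, Differentiating Media) in mSGc and 45.7% to 51.3% in IMOK. *Jun* held 2.61% to 14.9% in mSGc and 4.64% to 7.62% in IMOK. The summed Jun family, at 345 to 696 TPM in mSGc and 310 to 537 TPM in IMOK, was several times the Fos family, at 44.4 to 99.1 and 33.9 to 74.7 TPM.

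**Figure D3:**
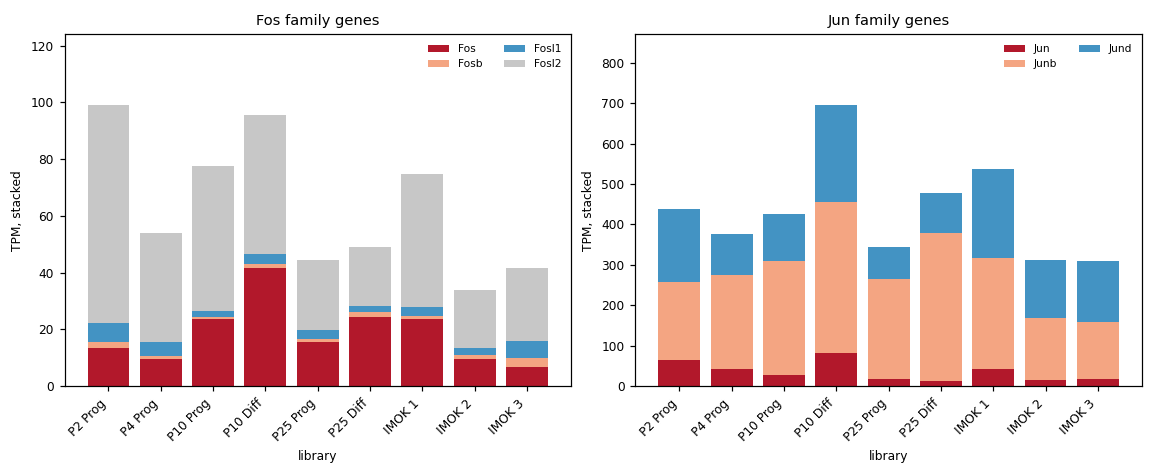
Summed TPM of the Fos family (left) and the Jun family (right) in each library, stacked by gene, with 1 library per bar. *Fosl2* takes the largest part of the Fos family except at P25 in Differentiating Media, where *Fos* takes 49.6%, and *Junb* takes 76.6% of the Jun family in the same library.

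The comparison of mSGc with IMOK asked which of the 2 lines holds more mRNA of each gene. *Ier3* was higher in mSGc, and none of the other 9 genes passed the threshold in either direction. The log2 fold change of *Ier3* over all 6 mSGc libraries was 1.31 (standard error 0.20, adjusted p = 0.00307 in edgeR's quasi-likelihood test, Benjamini-Hochberg over 12885 genes). At P10, the passage at which the study compares the lines, it was 1.39 (standard error 0.19, adjusted p = 0.0269 over 13018 genes). Thus 1 of 10 genes was called higher and 0 lower in each comparison, where 6.58% of all genes tested were called higher and 8.3% lower over all mSGc libraries, and 2.34% higher and 1.87% lower (4.2% in all) at P10. At an unadjusted p under 0.05 in edgeR's test the 10 genes numbered 4 over all mSGc libraries and 6 at P10 (30.4% and 24.9% of all genes). DESeq2 called 3 of the 10 in each comparison, *Junb* and *Zfp36* besides *Ier3*, but it also called more of all genes. Its calls over all genes numbered 2900 over all mSGc libraries and 2231 at P10, against 1918 and 547 by edgeR. Both comparisons use the same IMOK libraries, and line, medium and experiment change together in them. The labels give no passage for IMOK, but the study states that it matched that of P10 mSGc. Over all mSGc libraries the lines therefore differ in passage too.

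The group of 6 mSGc libraries lay wholly above the 3 IMOK libraries for *Ier3* alone, a separation in CPM that 9.7% of all genes tested had in this direction. At P10, where only 2 libraries face 3, both lay above IMOK for *Fos*, *Junb*, *Ier3*, *Dusp1* and *Zfp36*, and 0 of the 10 had both below, compared with 23.7% and 21.2% of all genes tested. This was read in CPM, and in TPM the P10 library in Progenitor Media (5.82 TPM) lay below IMOK replicate 2 (6.15 TPM) for *Dusp1*. The median log2 fold change of the 10 genes was 0.80 over all mSGc libraries and 1.12 at P10, beside 0.0023 and -0.012 for all genes tested, and 7 of the 10 estimates were positive in each.

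The estimates that missed the threshold had wide intervals. For *Junb* the log2 fold change over all mSGc libraries was 0.81 (95% interval 0.23 to 1.40, adjusted p = 0.0641). The genes of whole chromosomes were shifted in the same comparison, with a median log2 fold change of 0.35 on chromosome 8, which holds *Junb*, 0.31 on chromosome 4, which holds *Jun*, 0.23 on chromosome 12, which holds *Fos*, and -0.55 on chromosome 19, which holds *Fosl1*. For the other genes it lay between -0.061 and 0.073. The study's karyotype of early passage mSGc found some abnormalities of chromosomes 8 and Y. The part of the chromosome in any gene's value was not tested. For *Zfp36* the log2 fold change over all mSGc libraries was 0.79 (0.16 to 1.42, adjusted p = 0.0880) and for *Dusp1* 1.67 (0.013 to 3.32, adjusted p = 0.161). For *Fos* it was 0.92 (-0.14 to 1.98) and for *Jun* 0.94 (-0.27 to 2.16). *Egr1* (-0.22, interval -0.80 to 0.36), *Atf3* (-0.077, interval -0.95 to 0.80), *Fosb* (-0.29, interval -1.47 to 0.89) and *Fosl1* (0.13, interval -0.99 to 1.248) had estimates near 0, with intervals that leave differences of about 1 log2 unit possible for all but *Egr1*.

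These calls depended on single libraries, except that of *Ier3* over all mSGc libraries, whose adjusted p stayed between 0.00336 and 0.0235 when each library in turn was left out. At P10 the call of *Ier3* was lost without either P10 library and without IMOK replicate 2 or 3 (adjusted p from 0.120 to 0.163), with log2 fold changes from 1.298 to 1.46. Without IMOK replicate 1 at P10, 5 genes were called higher, namely *Fos* (log2 fold change 2.10), *Jun* (1.82), *Junb* (1.24), *Zfp36* (1.246) and *Ier3* (1.48), while 3416 of 12602 genes were called in all, against 547 of 13018 with it. Over all mSGc libraries *Junb* was called without P2 or without IMOK replicate 1, and *Zfp36* without P25 in Differentiating Media. Calls over all genes changed with the library left out too, to as few as 738 (without IMOK replicate 2), against 1918 of 12885 with all libraries.

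**Figure D4:**
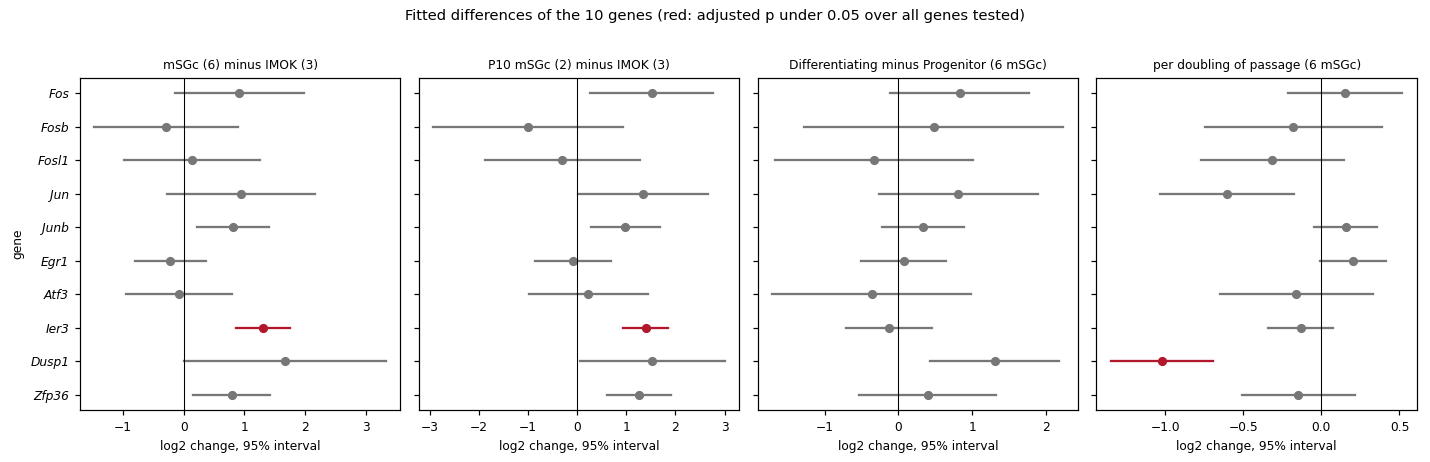
Fitted log2 difference of each gene (point) with its 95% interval (line) in the 4 comparisons, red where the adjusted p is under 0.05. *Ier3* is red in both comparisons with IMOK (1.31 and 1.39), *Dusp1* is red for passage (-1.02 per doubling), and no gene is red for medium.

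Within IMOK, replicate 1 held more mRNA of 5 genes than the mean of replicates 2 and 3 by at least 1.5-fold on the log2(CPM + 0.5) scale. These were *Fos* (2.49-fold), *Jun* (2.22-fold), *Egr1* (1.79-fold), *Atf3* (1.71-fold) and *Junb* (1.64-fold), while *Fosb* was 1.93-fold lower. Across all genes tested 24.8% were higher and 19.1% lower by this measure, so many genes differed between these libraries, and 1 library against 2 gives no test. The summed level of 4 myoepithelial or smooth muscle markers was 950 TPM in replicate 1 and 7.86 and 14.6 TPM in replicates 2 and 3, nearly all of it *Acta2*, which encodes smooth muscle actin. That of 5 leukocyte markers was 33.9 TPM against 8.81 and 4.86, almost wholly *Cd68*. That of 7 fibroblast markers was 24.6 TPM against 4.05 and 4.55, mostly *Mmp2* (18.2 TPM in replicate 1) and *Col1a1* (5.25 TPM). The fibroblast markers *Dcn* and *Col3a1* were lower in replicate 1 than in replicates 2 and 3, and *Lum* was at 0 TPM in each. The part of these markers in the values of the 5 genes was not tested.

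Passage was fitted together with medium in the 6 mSGc libraries, with 3 residual degrees of freedom. *Dusp1*, which switches off the MAP kinases p38, JNK and ERK, fell by 1.02 on the log2 scale for each doubling of the passage number (standard error 0.14, adjusted p = 0.0386 by edgeR's quasi-likelihood test). It was the only gene of the 10 called, beside 0.442% of 12451 genes called lower and 0.0482% called higher (0.49% in all). In Progenitor Media its level was lower at every later passage, and in Differentiating Media it was lower at P25 than at P10. *Jun* had an estimate of -0.60 per doubling (95% interval -1.03 to -0.18, adjusted p = 0.227) and, like *Dusp1*, a lower level at each later passage in either medium. *Egr1* (0.20 per doubling) and *Junb* (0.15 per doubling) had positive estimates, with intervals from -0.011 to 0.41 and from -0.049 to 0.36. The other 6 genes had adjusted p-values from 0.543 to 0.803.

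Single libraries give the steps behind these slopes, with no replicate. Between P2 and P25 in Progenitor Media 3 of the 10 genes were at least 2-fold lower on the log2(CPM + 0.5) scale, *Dusp1* (-3.30), *Jun* (-1.64) and *Atf3* (-1.37), and 0 were higher, where 12.7% and 8.46% of all genes were. Between P10 and P25 in that medium *Atf3* was lower (-1.68; 10.9% of all genes) and *Fosb* higher (1.12; 8.51%). In Differentiating Media *Jun* (-2.48), *Dusp1* (-1.88) and *Zfp36* (-1.47) were lower between those passages and 0 were higher (11.5% and 5.41% of all genes).

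The call of *Dusp1* was lost without P2 (estimate -0.94, adjusted p = 0.465), P4 (-1.05, 0.108), P10 in Differentiating Media (-0.97, 0.0783), P25 in Progenitor Media (-1.28, 0.154) or P25 in Differentiating Media (-0.97, 0.0737), and held without P10 in Progenitor Media (-0.996, adjusted p = 0.0240). Summed levels of luminal, myoepithelial or smooth muscle and fibroblast markers were also lower at P25 than at P2 in Progenitor Media. That of the basal epithelial markers was higher, with 15331 TPM at P2 and 24370 TPM at P25 in that medium. Of all these markers 1 gene was called with passage, *Cnn1* (adjusted p = 0.0382 in edgeR's test). *Cnn1* was at 21.2 TPM at P2 and 1.51 TPM at P4, and at 0 TPM in every P10 and P25 library. In Progenitor Media the luminal keratins *Krt7*, *Krt8*, *Krt18* and *Krt19* summed to 13036 TPM at P2 and 1786 TPM at P25, the myoepithelial or smooth muscle markers to 768 and 50.4 TPM, and the fibroblast markers to 25.7 and 1.02 TPM. Their part in the values of *Dusp1* was not tested.

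Medium was the other term of that fit, and its comparison asked how the cells differ between Differentiating Media and Progenitor Media. None of the 10 genes passed the threshold, as for nearly all genes (0.0241% called higher and 0% lower). At an unadjusted p under 0.05 in edgeR's test there was 1 of the 10, where 8.18% of all genes passed that limit. That gene was *Dusp1*, with a log2 difference of 1.31 (95% interval 0.43 to 2.18, adjusted p = 0.339). *Fos* (0.83, interval -0.11 to 1.77) and *Jun* (0.81, interval -0.27 to 1.89) had intervals that span 0. DESeq2 also called 0 of the 10. The summed luminal keratins were higher in Differentiating than in Progenitor Media at P10 (10562 against 1800 TPM) and at P25 (6579 against 1786 TPM), and their part in these values was not tested.

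The difference between media was not alike at the 2 passages. At P10 *Dusp1* and *Jun* were higher in Differentiating Media by 1.81 and 1.36 on the log2(CPM + 0.5) scale, and *Atf3* was lower, at -1.45. At P25 the same differences were 0.51 for *Dusp1*, -0.59 for *Jun* and 0.65 for *Atf3*. At least 2-fold differences numbered 2 higher and 1 lower of the 10 at P10 (7.5% and 5.93% of all genes) and 0 at P25 (3.73% and 5.15%). *Junb*, by contrast, was higher in Differentiating Media by 0.25 at P10 and 0.37 at P25, and *Fos* by 0.64 and 0.45. With 1 library per medium at each passage none of these differences has a replicate. A medium by passage term, added to the fit after the data were seen, left 2 residual degrees of freedom and gave 0 calls among the 10 genes and 0 of 13158 genes in edgeR's test. At an unadjusted p under 0.05 it held *Jun* (-1.44 per doubling, 95% interval -2.17 to -0.71) and *Zfp36* (-1.11, interval -1.88 to -0.33), both with an adjusted p of 1, where 3.06% of all genes passed that limit.

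**Figure D5:**
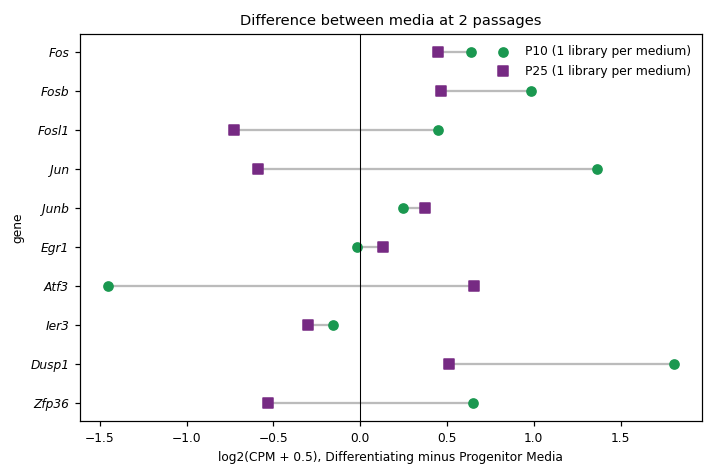
Difference in log2(CPM + 0.5) between Differentiating and Progenitor Media for each gene at P10 (circles) and at P25 (squares), each from 1 library per medium. *Jun*, *Zfp36* and *Fosl1* lie to the right of 0 at P10 and to the left at P25, *Atf3* lies the other way round, and *Fos*, *Fosb*, *Junb* and *Dusp1* lie to the right at both.

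The 10 genes did not move as 1 block. Over the 9 libraries Pearson's r of log2(TPM + 1) was highest for *Fos* with *Junb* (0.91), *Jun* with *Zfp36* (0.83) and *Jun* with *Dusp1* (0.82), and lowest for *Fosl1* with *Junb* (-0.55) and *Fosl1* with *Fos* (-0.53). *Fos* and *Jun* themselves had an r of 0.39. Among 9659 genes with at least 10 TPM in at least 2 libraries, the 5 most like *Fos* were *Stradb* (0.97), *Mccc1* (0.96), *Ppp2r5c* (0.96), *1700017B05Rik* (0.95) and *Itfg1* (0.95). Those most like *Fosl1* were *Myadm* (0.89), *Tatdn2* (0.88), *Basp1* (0.87), *Ctla2b* (0.86) and *Gtf2e1* (0.85). These values describe 9 libraries that share lines, media and passages, and they carry no p.

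The wider early response was read from 7 further lists. Of 13 AP-1 and related leucine zipper genes 11 could be tested between the lines, and 0 were higher and 1 lower in mSGc, *Batf3* (0.531 to 1.55 TPM against 5.93 to 16.8 TPM in IMOK, log2 fold change -3.12). Of 15 testable other immediate early transcription factors, *Nr4a2*, an orphan nuclear receptor, was higher (log2 fold change 1.13) and *Klf2*, a Krüppel-like factor, lower (-2.62, at most 12 counts in an mSGc library). The median of the first list was -0.36 and that of the second 0.13, beside 0.0023 for all genes tested.

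Over all genes 14.9% were called between the lines in either direction, which is the level to read these lists against. Of 19 other feedback inhibitors 4 were higher and 1 lower in mSGc, with a median of 0.38. The antiproliferative gene *Btg2* was at 60.8 to 282 TPM in mSGc and 6.27 to 27.9 TPM in IMOK (log2 fold change 3.75, standard error 0.65, adjusted p = 0.00514), its relative *Btg1* had a log2 fold change of 1.41, the polo-like kinase gene *Plk2* 1.64, and *Zfp36l1*, a relative of *Zfp36*, 1.93. *Dusp2*, a phosphatase of the same family as *Dusp1*, was lower, with 0 to 8 counts per mSGc library and 29 to 44 per IMOK library. At P10 *Zfp36l1*, *Btg1* and *Btg2* were again called higher and *Dusp2* lower.

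Of 17 secreted and effector genes 3 were higher and 0 lower over all mSGc libraries, with a median of 0.46. *Ereg*, which encodes the EGF receptor ligand epiregulin, was at 11.8 to 35.3 TPM in mSGc and at 0 to 2 counts in IMOK, so no fold is given. The chemokine gene *Cxcl1* had a log2 fold change of 1.33 and *Ptgs2*, which encodes cyclooxygenase-2, a value of 2.13. At P10 *Ereg* and *Cxcl1* were called higher and *Arc*, a neuronal early gene, lower (-2.85). Of 18 upstream factors and kinases 0 were higher and 2 lower, the ternary complex factors *Elk1* (-0.68) and *Elk3* (-0.61), which bind beside serum response factor, and 0 were called at P10.

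Heat shock and glucocorticoid responsive genes were read because both kinds of stimulus are known to reach some of the 10 genes. Of 12 heat shock and protein stress genes 4 were higher in mSGc, the chaperone genes *Hspa1b* (2.61), *Hspa1a* (1.502), *Hspb1* (1.34) and *Dnajb1* (1.01). *Hspa1a* and *Hspa1b* are nearly identical copies whose reads the counting could have split. Of 9 glucocorticoid responsive genes the kinase gene *Sgk1* (1.07) and the clock gene *Per1* (0.59) were higher, and the list's median was 0.86. At P10 0 genes of either list were called, with 4 and 7 at an unadjusted p under 0.05 in edgeR's test (24.9% of all genes).

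Without IMOK replicate 1, an alternative added after the data were seen, the comparison over all mSGc libraries called 3 of the 5 feedback inhibitors again, not *Btg1* (adjusted p = 0.0669) or *Dusp2* (0.0787). It called *Batf3*, *Klf2*, *Ereg*, *Cxcl1*, *Elk1*, *Hspa1b*, *Sgk1* and *Per1* again, but not *Nr4a2* (0.0761), *Ptgs2* (0.0508), *Elk3* (0.0596), *Hspa1a* (0.0518), *Hspb1* (0.0932) or *Dnajb1* (0.0689). Its only gains in the 7 lists were the chaperone gene *Hspa5* and the glucocorticoid responsive genes *Zbtb16* and *Cebpd*. With all libraries the estimate of *Hspa5* was -1.03, lower in mSGc, unlike the 4 chaperone genes named above. The feedback and secreted genes called at P10 were all called again without it. Each of the 7 lists gained calls there, among them *Fosl2*, *Ier2*, *Plk2* and *Cxcl2*, chosen as examples after their values were seen. Calls over all genes at P10 rose as well, from 547 of 13018 to 3416 of 12602, so gains in a list are to be read against that rise.

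Within mSGc 0 genes of the 7 lists were called between media. With passage 1 gene was called, *Ctgf*, which encodes a matricellular growth factor and fell by 1.68 on the log2 scale per doubling (standard error 0.21, adjusted p = 0.0382). Its level was 1931 TPM at P2, 740 at P4, 96.3 at P10 and 37.8 at P25 in Progenitor Media, and 1157 at P10 and 78.2 at P25 in Differentiating Media. Like *Dusp1* and *Jun*, it was therefore higher in Differentiating than in Progenitor Media at P10 and lowest at P25. Of the 16 testable genes of its list 15 had negative estimates, and of 18 testable feedback inhibitors 14, beside 49.2% of all genes. At an unadjusted p under 0.05 in edgeR's test, in either direction, these lists held 5 and 10 genes, beside 13.2% of all genes, and *Ctgf* remains the only call.

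For lists in which no gene was called in a comparison, some of the most abundant genes are given. *Atf4*, a factor of the integrated stress response, was at 255 to 650 TPM over the 9 libraries, and *Jund* at 78.9 to 242 TPM. Their estimates between media were -0.50 and 0.72, and with passage 0.12 and -0.29 per doubling. *Myc*, which drives growth, was at 122 to 236 TPM and *Ier2*, another short-lived early gene, at 98.3 to 248 TPM, with estimates of 0.022 and 0.044 between media and of 0.12 and 0.34 per doubling. Among the upstream factors and kinases the MAP kinase kinase gene *Map2k2* (77.2 to 126 TPM) had a log2 fold change of 0.38 between P10 mSGc and IMOK. *Dusp6*, an ERK-specific phosphatase, was at 176 to 609 TPM, with an estimate of -0.30 between media. *Hspa8*, the constitutive chaperone, had estimates of -0.24 between media and -0.031 per doubling. *Tsc22d3*, a glucocorticoid induced gene, was at 48.4 to 781 TPM, with estimates of -1.499 between media (95% interval -3.65 to 0.65) and 0.54 per doubling (-0.43 to 1.52).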

How the data were processed

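RNA-seq was deposited as counts per gene for 6 mSGc and 3 IMOK libraries. The authors aligned reads to mm9 and counted them with featureCounts. The submitters' processing notes name TopHat2 2.1.1, Bowtie2 2.2.6, featureCounts 1.5.1 and DESeq2 1.12.4, while the annotation, strand setting and treatment of multi-mapping reads are not given in the sources used here. Counts were tested over all genes with edgeR 4.0.16 (R 4.3.3; TMM factors, quasi-likelihood test, Benjamini-Hochberg adjustment, threshold 0.05) after edgeR's expression filter. The 4 comparisons were all mSGc libraries against IMOK, P10 mSGc against IMOK, and medium and log2 passage number fitted together within mSGc. Alternatives were DESeq2 1.42.0, limma 3.58.1 voom, other filters, no TMM and leaving out each library. The fitting code was tested on simulated data. TPM used the tabulated gene lengths.

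A count of 3 corresponds to 0.163 to 0.481 CPM, and such limits cover counting error only. All 10 genes are named throughout. Of 7 other lists, genes past the threshold are named, at most 4 per list, direction and comparison by smallest adjusted p, and where none passed some of the 2 with the highest mean TPM. A gene that this rule names is not reported here. Genes most like *Fos* and *Fosl1* are the 5 with the highest Pearson's r. The genes and lists were chosen with earlier results of these data known. Libraries of other cell lines and tissues that the study describes were not analysed here.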

Additional observations from a re-analysis of the deposited data

Results flagged for a closer look

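For 5 genes the difference between Differentiating and Progenitor Media had opposite signs at P10 and P25, each from 1 library per medium, so the contrast between these 2 passages alone was not tested. A medium by passage term over the 6 mSGc libraries gave an adjusted p of 1 for each of the 10 genes in edgeR's test. On the log2(CPM + 0.5) scale *Jun* was at 1.36 at P10 and -0.59 at P25, *Zfp36* at 0.65 and -0.53, and *Fosl1* at 0.45 and -0.73. *Atf3* went the other way, at -1.45 and 0.65. The values of *Egr1*, -0.020 and 0.13, were both close to 0. The other 5 genes had the same sign at both passages.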

How the results depend on the processing

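Over all mSGc libraries *Ier3* was called in every alternative run. Of the 10 genes, 1 was called by edgeR, 3 by DESeq2, 2 with Progenitor Media libraries only, and 1 to 2 without each library in turn. Of all genes, 1918 were called by edgeR (848 higher, 1070 lower), 2900 by DESeq2, and 738 to 1918 without each library, 738 of them without IMOK replicate 2 and 943 without IMOK replicate 3. Without TMM factors the split was 663 higher and 1373 lower. At P10, 1 of the 10 was called by edgeR, 3 by DESeq2 and 0 to 5 without each library. Of all genes the numbers were 547, 2231 by DESeq2, 272 with at least 10 counts in every library, and 0 to 3416 without each library, namely 3416 without IMOK replicate 1, 36 without replicate 2, 69 without replicate 3 and 0 without either P10 library. The splits there were 304 higher and 243 lower in edgeR, 198 and 215 without TMM factors, and 259 and 140 with voom.

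For medium, 0 of the 10 genes were called in any alternative, and all genes called numbered 3 by edgeR, 272 by DESeq2, 36 without a filter, 1 with at least 10 counts in every library, 0 with voom, 123 at P10 and P25 with passage as a block, and 0 to 58 without each library. For passage, 1 of the 10 was called by edgeR, 2 by DESeq2 (*Dusp1* and *Jun*), 0 with at least 10 counts in every library, 0 with Progenitor Media libraries only, 0 with the untransformed passage number, and 0 to 1 without each library. All genes called with passage numbered 61, 700 by DESeq2, 161 without a filter, 3 with at least 10 counts, 31 with Progenitor Media libraries only, 126 with the untransformed number, and 0 to 329 without each library. The causes of these changes were not tested.

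Estimates that changed sign were all of genes not called, and their ranges without each library in turn were as follows. Between the lines *Fosl1* ran from -0.095 (without IMOK replicate 2) to 0.65 (without IMOK replicate 3), *Fosb* from -0.58 to 0.35 (without IMOK replicate 3), *Egr1* from -0.41 to 0.12 (without IMOK replicate 1) and *Atf3* from -0.32 to 0.23 (without IMOK replicate 1). *Atf3* was at 0.10 with Progenitor Media libraries only. At P10 *Atf3* ran from -0.70 (without the Progenitor Media library) to 0.79 and was at -0.010 with voom, *Egr1* ran from -0.32 to 0.23 (without IMOK replicate 1) and *Fosl1* from -0.62 to 0.20 (without IMOK replicate 3). Between media *Atf3* ran from -1.20 to 0.25 (without P10 in Progenitor Media), *Jun* from -0.56 and *Zfp36* from -0.62 (both without P10 in Differentiating Media) to 1.33 and 0.83, *Fosl1* from -0.57 to 0.43 and *Egr1* from -0.13 to 0.12, where 0.43 and -0.13 came without P25 in Progenitor Media. With passage *Fosb* ran from -0.54 to 0.028 (without P2) and *Atf3* from -0.30 to 0.19 (without P25 in Progenitor Media).

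No paired analysis was possible because only the IMOK libraries carry replicate numbers to pair by, and the single blocked fit was that of the media by passage given above. Each mSGc condition had 1 library, so where a library is left out the rest are assumed to vary alike. *Fosb* and *Fosl1* rest on as few as 8 and 10 counts. Line, medium and experiment cannot be told apart between mSGc and IMOK.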

Other observations

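*Atf3* was read beside 3 other leucine zipper genes of the stress response, chosen after their values were seen. Over the 9 libraries Pearson's r of log2(TPM + 1) was 0.90 for *Atf3* with *Atf5*, 0.85 with *Ddit3* and 0.48 with *Atf4*, as a description of libraries that share lines, media and passages. In the P10 library in Progenitor Media, where *Atf3* was highest within mSGc, *Atf4* (650 TPM), *Ddit3* (239 TPM) and *Atf5* (222 TPM) were also at their highest of the 9 libraries. In IMOK replicate 1, the library with the most *Atf3* in TPM (40.0 against 38.5) though not in CPM (32.7 against 39.4), they were at 340, 161 and 188 TPM.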
